A study of Mus musculus with 8 samples.

Results

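Germinal centre B cells sorted 4 days after a T-dependent challenge of carrier-primed mice were compared with resting B cells of unimmunised mice. The comparison rests on 4 arrays chosen by their labels, 2 for primed TD day 4 and 2 for resting B cells, of 8 arrays in the series. Transcripts were measured on an Affymetrix mouse expression array, and all 12422 probe sets that are no controls were described. All mice were F1 offspring of QM and C57BL/6 parents. QM (quasi-monoclonal) mice carry a rearranged heavy chain gene that binds the hapten NP with lambda light chains. What share of the B cells in each group had this specificity was not tested here.

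Resting B cells were B220+ GL7- cells. The primed TD day 4 mice had received 50 µg of the carrier protein chicken gamma-globulin in alum with heat-killed Bordetella pertussis, and 5 weeks later 50 µg of soluble NP coupled to that carrier. Their B220+ GL7+ cells were sorted on day 4. In each of these groups array 1 held a pool of 6 mice and array 2 a pool of 9. Unprimed TD day 10 cells (50 µg of NP-carrier in alum with heat-killed bacteria, 2 pools of 6 mice) and TI day 4 cells (30 µg of NP on the polysaccharide Ficoll, pools of 4 and 10 mice) share the GL7+ gate and serve here only to show where primed TD day 4 cells differ. The resting mice received neither carrier nor adjuvant, so the effect of the immunisation itself and that of the GL7 gate cannot be told apart.

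Germinal centres are clusters of B cells that form in follicles after an antigen meets B and T cells. Their B cells divide fast, mutate their immunoglobulin genes and compete for help from T cells, under the repressor Bcl6. Resting follicular B cells, in contrast, recirculate through lymph and blood along gradients of sphingosine 1-phosphate and chemokines and rarely divide.

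The values are linear intensities, and every pair of values below gives array 1 and then array 2. For the tests, values under 81 units, the median of all values, were set to 81 (the floor) before log2 was taken. Of the 12422 probe sets, 7253 lay above the floor on at least 2 of the 8 arrays and were tested, and they name 5433 genes. A probe set was called at a limma adjusted p under 0.05, and a fold with an array of its dimmer side at or under the floor is a lower bound, given as at least that fold. The array medians lay between 77 and 89 units, and log2 values of replicate arrays differed with an SD of 0.69 in resting and 0.50 in primed TD day 4. The Gapdh control's 3' to 5' signal ratio was 0.867 and 1.59 in resting and 0.981 and 0.954 in primed TD day 4. With 2 arrays a group, their number limits precision throughout.

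Genes that mark germinal centre and dividing B cells were higher in the GL7+ sort. Bcl6 read 452 and 438 units in resting and 1409 and 1236 in primed TD day 4, a rise of 2.97-fold (log2 difference 1.57, SE 0.17, adjusted p = 0.00463). Mki67, a protein of dividing cells, read 9 and 34 against 500 and 491, at least 6.12-fold (adjusted p = 0.00894), and its other probe set read 195 and 105 against 349 and 407 (adjusted p = 0.055). The Mki67 call was lost without 1 array, with adjusted p up to 0.0728. Ptprc, the gene of the sort marker B220, read 662 and 744 against 582 and 898, so its groups overlapped. Another Ptprc probe set had a log2 difference of 1.15 and was not called (adjusted p = 0.2). The untested one lay under the floor on all arrays. Fas, a death receptor of germinal centre B cells, lay under the floor on all arrays. Cd38 was not analysed here.

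Summed marker signals of red cell precursors, neutrophils and macrophages were lower on both primed TD day 4 arrays. The 11 genes of the B cell list, none of them at the floor, summed to 43848 and 40282 units in resting and to 30547 and 32109 in primed TD day 4. The 11 measured red cell precursor genes summed to 26972 and 24211 against 2327 and 2280. The 16 neutrophil genes summed to 7779 and 7991 against 2803 and 2837, and the 18 macrophage genes to 7495 and 6964 against 5452 and 5126. The NK cell, dendritic cell and follicular helper T cell lists each had 1 lower call, of 6, 6 and 1 tested genes. Over all genes 3.7% were called lower. These calls (Gzma, Cst3 and Cxcr5) were lost when 1 array was left out. The plasma cell genes summed to 2029 and 1681 against 3489 and 3962, with Jchain called higher. The T cell genes summed to 1641 and 1859 against 1924 and 2024. Lists of T cell, stromal and platelet genes had no call, and 9 of the 14 T cell genes, among them Cd3d, Cd3e and Cd8a, lay under the floor on all 4 arrays. The macrophage genes Adgre1 and Mrc1 and the plasma cell genes Prdm1 and Sdc1 also lay under it. In RNA from a whole sort, fewer cells of a type and less RNA per cell cannot be told apart. The plot of marker sums shows red cell precursor genes with the widest gap between the groups.

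**Figure D1:**
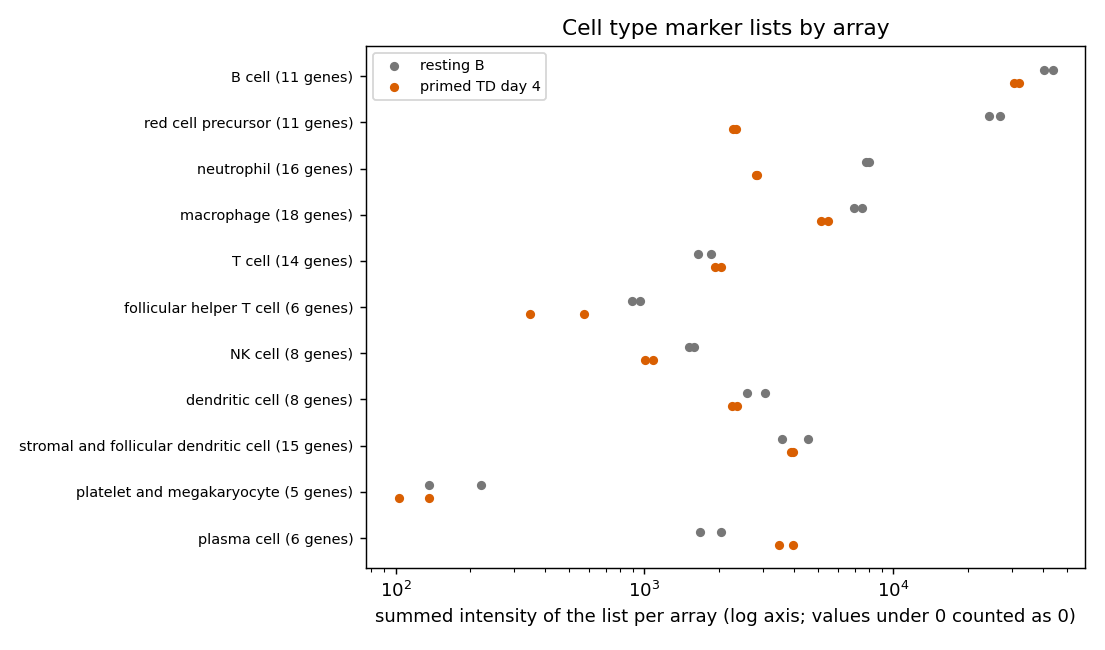
Summed intensity of each cell type marker list on each array (log axis, values under 0 counted as 0), resting B cells in grey and primed TD day 4 in orange, 1 point an array. The red cell precursor sums lie at 24211 and 26972 in resting and at 2280 and 2327 in primed TD day 4, while the B cell sums stay between 30547 and 43848 on all 4 arrays.

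Primed TD day 4 cells differed from resting cells at 683 of 7253 probe sets, 9.42% of those tested. Of these, 423 (5.83%) were higher and 260 (3.58%) lower. They name 552 genes, 331 higher and 221 lower. All 683 had arrays that do not overlap between the groups, as did 3366 (46.4%) of all tested probe sets, 1657 upward and 1709 downward. The median fold was 2.51 among the higher and 2.48 among the lower calls. At least 4-fold changes numbered 143 (82 higher, 61 lower) and at least 8-fold changes 25 (9 higher, 16 lower). For 76 rises and 62 falls the dimmer group was at or under the floor on both arrays, so those folds are lower bounds.

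The count differed between fits. Fitted on the 4 arrays alone, 118 probe sets were called. Leaving out primed TD day 4 array 1 or 2 left 192 and 241 calls, and leaving out resting array 1 or 2 left 621 and 586. Without the marker genes of other cells 661 were called. The median log2 difference of all tested probe sets was -0.02. In the plot of group means the points farthest from the diagonal on the lower side are globin genes.

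**Figure D2:**
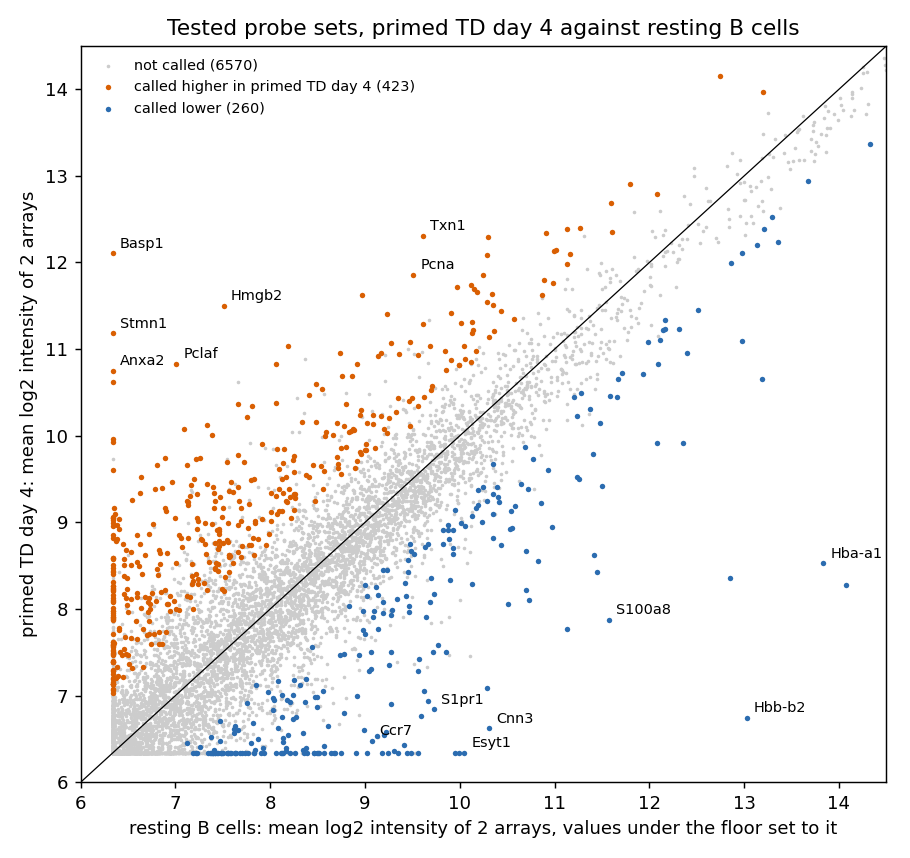
Mean log2 intensity of each tested probe set in resting B cells (x axis) and primed TD day 4 (y axis), 1 point a probe set, with values under the floor of 81 set to it and the diagonal marking equal levels. The 423 orange points were called higher, the 260 blue ones lower, and the grey ones were not called. Basp1, Stmn1 and Anxa2 lie at the resting floor, and Hbb-b2 and Hba-a1 lie farthest below the diagonal among the labelled genes.

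The largest rises joined membrane and cytoskeletal proteins with genes of chromosome duplication. Basp1, a membrane-bound protein of the cell cortex, read -26 and 6 units in resting and 5311 and 3677 in primed TD day 4, at least 54.6-fold (log2 difference 5.77, SE 0.22, adjusted p = 0.000194). Stmn1 (stathmin), which destabilises microtubules, read -35 and -17 against 2608 and 2079, at least 28.8-fold (SE 0.17 on the log2 scale, adjusted p = 0.000194). Anxa2, a calcium-dependent membrane-binding protein, read 44 and -362 against 1903 and 1555, at least 21.2-fold (adjusted p = 0.000194). These 3 probe sets lay under the floor on both resting arrays and were bright on both primed TD day 4 arrays. A second Basp1 probe set read 3376 and 2462 against 4183 and 3961 (adjusted p = 0.244), so the probe sets of this gene disagree on its resting level. S100a10, the usual partner of Anxa2 in a membrane complex, moved the other way, from 1682 and 1951 to 266 and 533 (log2 difference -2.27, adjusted p = 0.0208). That call was lost without 1 array, with adjusted p up to 0.0982.

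Hmgb2, a DNA-bending chromatin protein of dividing cells, rose from 179 and 185 to 3032 and 2772, 15.9-fold (log2 difference 3.99, SE 0.21, adjusted p = 0.000629). Pclaf, which binds the sliding clamp of replication, rose from 159 and 104 to 1711 and 1944, 14.2-fold (adjusted p = 0.00114). The other probe sets of Pclaf were dim and not called. Cks1b and Cks2, small adaptors of the cyclin-dependent kinases, were under the floor in resting cells (8 and 48, and 71 and 68). They read 1100 and 903, and 1053 and 906, in primed TD day 4, at least 12.3-fold and 12.1-fold (adjusted p = 0.000356 for each). Both folds are lower bounds set by the same floor, so how far each adaptor moved is not known. Gadd45b, a stress-induced regulator of kinase signalling, read 60 and 229 against 1084 and 1078, at least 7.94-fold (adjusted p = 0.0135, and up to 0.091 without 1 array). Its second probe set read -117 and -2 against 168 and 276 and was not called (adjusted p = 0.0515).

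Further down the ranking stood genes of metabolism and redox balance. Dbi, which carries acyl-CoA esters, rose from 137 and 92 to 848 and 776, 7.23-fold (adjusted p = 0.00212). Txn1, thioredoxin, rose from 685 and 891 to 5050 and 5116, 6.51-fold (log2 difference 2.70, SE 0.18, adjusted p = 0.00122). Of the 20 largest rises, Txn1 and Basp1 were the brightest on both primed TD day 4 arrays. Cmpk1, a pyrimidine nucleotide kinase, rose from 199 and 206 to 1376 and 1266, 6.52-fold (adjusted p = 0.000688). Mtmr14, a phosphoinositide phosphatase, read -42 and 65 against 552 and 506, at least 6.53-fold, and its second probe set rose too, from 142 and 142 to 704 and 572. Cdca7, a cell cycle gene induced by Myc and E2F, read 51 and 120 against 729 and 576, at least 6.57-fold (adjusted p = 0.00261).

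An Ighm probe set read -299 and -187 units in resting and 614 and 992 in primed TD day 4, at least 9.64-fold (adjusted p = 0.017, and up to 0.111 without 1 array). The brightest Ighm probe set, for the heavy chain constant region of IgM, read 20080 and 16255 against 14908 and 17256 and was not called (adjusted p = 0.712). Probe sets of immunoglobulin genes can share sequence with related genes, and which transcripts the first one reads was not tested. The plot of the largest changes shows 40 genes, which were picked only among probe sets with separated groups.

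**Figure D3:**
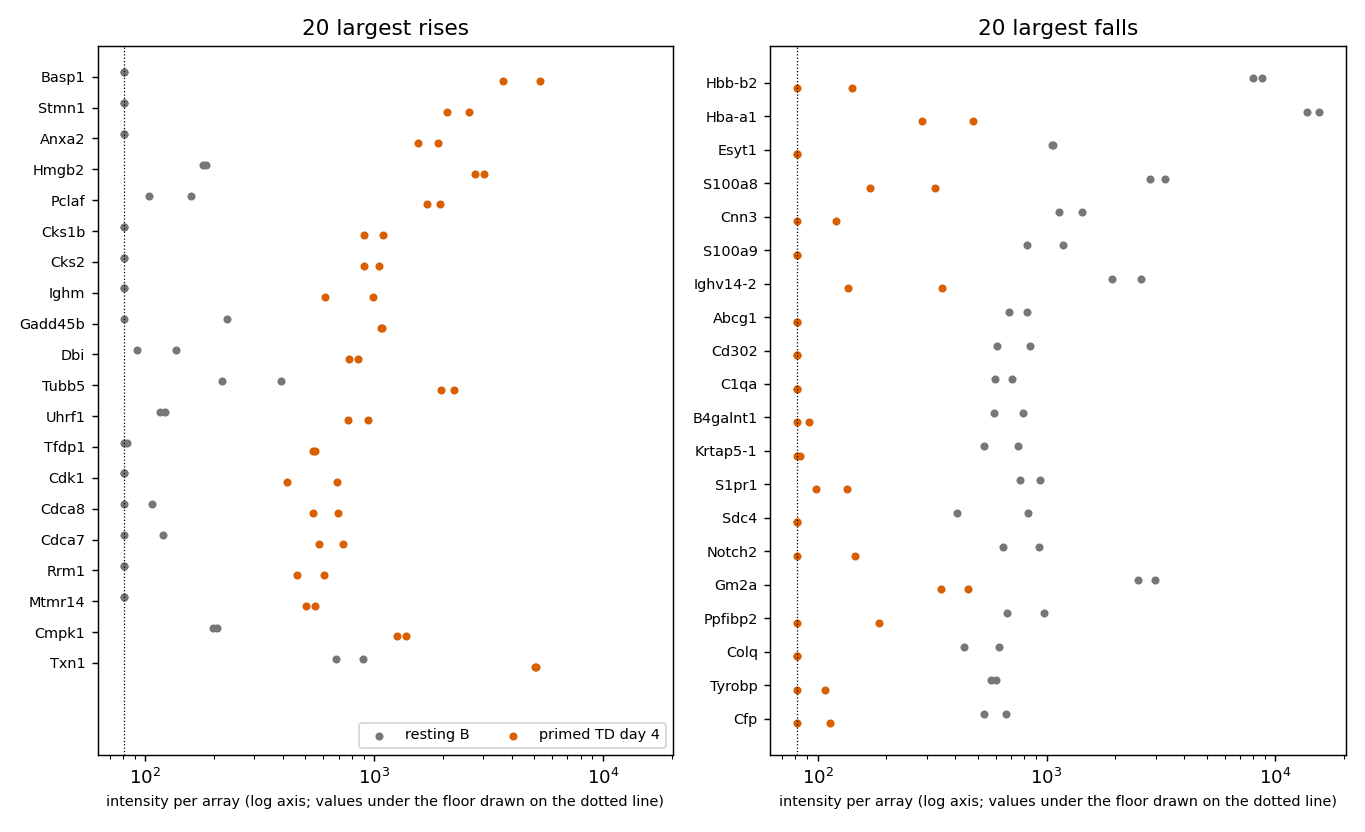
Intensity on each array (log axis) of the 20 largest rises (left) and the 20 largest falls (right) among called probe sets of 1 gene, resting B cells in grey and primed TD day 4 in orange, with values under the floor drawn on the dotted line at 81. Only probe sets whose groups do not overlap were picked. Stmn1 goes from the floor to 2079 and 2608, and Esyt1 from 1052 and 1064 to the floor.

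Several genes that license and fire replication origins rose. Of 16 tested, 8 were called higher and 0 lower, with a median log2 difference of 1.18. Over all 5433 genes, 5.34% were called higher and 3.7% lower, and the median was -0.03. Mcm4, a subunit of the replicative helicase, rose from 195 and 144 to 1109 and 962, 6.16-fold (SE 0.20 on the log2 scale, adjusted p = 0.00165). Its partners Mcm2 (112 and 173 to 917 and 713, 5.81-fold) and Mcm3 (632 and 610 to 2348 and 1976, 3.47-fold) rose as well, as did Mcm5 (1373 and 1129 to 4867 and 3883). Mcm6, of the same ring, had a log2 difference of -0.42 and was not called. The loading factor Cdc6 read 43 and 79 against 391 and 301, and Orc6, of the origin recognition complex, 13 and 21 against 319 and 361, at least 4.24-fold and 4.19-fold. Gmnn (geminin), which blocks a second round of loading, rose by 1.87 on the log2 scale. Orc1, Orc2, Orc4 and Orc5 stayed between -0.03 and 0.46 without a call.

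At the replication fork 11 of 20 tested genes were called higher and 0 lower (median 1.52), beside 5.34% called higher over all genes. Pcna, the sliding clamp, rose from 664 and 800 to 3789 and 3631, 5.09-fold (log2 difference 2.35, SE 0.16, adjusted p = 0.00122). Rpa3, of the complex that coats single-stranded DNA, rose from 82 and 88 to 541 and 435, 5.71-fold (adjusted p = 0.00126). Fen1, which trims Okazaki fragments, rose from 179 and 164 to 655 and 560, 3.54-fold, and Prim1, the primase, read 0 and 16 against 237 and 245, at least 2.98-fold. The clamp loader genes Rfc1, Rfc2, Rfc4 and Rfc5 were called with log2 differences between 1.21 and 2.05, and Top2a, which untangles replicated DNA, with 1.64. These 5 calls were each lost without 1 array, at adjusted p up to 0.0827. Leaving out primed TD day 4 array 1 or 2 gave the list 6 and 7 calls. The polymerase genes Pola1, Pola2, Pold1 and Pold3 lay between -0.20 and 1.29 without a call.

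Enzymes that supply nucleotides for DNA rose at some members. Of 17 tested genes of nucleotide synthesis, 5 were called higher and 0 lower (median 0.67), beside 5.34% called higher over all genes. Rrm1 and Rrm2, the subunits of ribonucleotide reductase, read -110 and 11 against 605 and 462, and 180 and 144 against 717 and 680. These are folds of at least 6.53 and of 4.34 (adjusted p = 0.00163 and 0.0021). Dck, which salvages deoxynucleosides, rose from 258 and 277 to 1896 and 1749, 6.81-fold (adjusted p = 0.0033). Its second probe set rose by 2.14 on the log2 scale. Mthfd2, of mitochondrial folate metabolism, and Ada, adenosine deaminase, were called at 3.12-fold or more and at 2.52-fold, but not without primed TD day 4 array 1 (adjusted p = 0.0627 and 0.0728). With that array left out, 3 of the 5 calls of the list were left. Tk1, thymidine kinase, at 0.03 and Shmt1 at -0.50 were not called.

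Genes of entry into mitosis made the list with the highest median. Of 16 tested mitotic kinases and checkpoint genes, 11 were called higher and 0 lower (median 1.65), beside 5.34% called higher over all genes. Cdk1, the kinase that starts mitosis, read -169 and -63 in resting and 690 and 416 in primed TD day 4, at least 6.61-fold (SE 0.28, adjusted p = 0.00369). Cdc20, which activates the anaphase-promoting complex, rose from 245 and 190 to 1293 and 1091 (log2 difference 2.46, adjusted p = 0.0017). Birc5 (survivin) and Cdca8 (borealin), of the chromosomal passenger complex, read 139 and 170 against 985 and 749, and 11 and 107 against 693 and 544. Their log2 differences were 2.48 and 2.72 (adjusted p = 0.00185 and 0.00165). Mad2l1, of the spindle checkpoint, rose by 2.02 on the log2 scale. Aurka and Incenp, at 1.65 each, and Bub3, at 0.84, lost their calls without 1 array (adjusted p up to 0.126). Plk1, another mitotic kinase, had -0.72 and was not called.

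Among 16 tested kinesins and spindle proteins 7 were called higher, beside 5.34% over all genes, and 0 lower. All 16 differences were positive (median 1.02). Kif20a and Kif23, motors of the central spindle in cytokinesis, read -55 and -12 against 589 and 438, and 58 and 86 against 440 and 459. The folds were at least 6.27 and at least 5.38 (adjusted p = 0.00129 and 0.00198). A second Kif20a probe set read -28 and -49 against 162 and 132 and was not called (adjusted p = 0.0616). Nusap1, which bundles spindle microtubules, read 75 and 44 against 285 and 355, at least 3.93-fold (adjusted p = 0.0167), and Kif22 rose 2.86-fold (adjusted p = 0.0196). The calls of Nusap1 and Kif22 were lost without 1 array, with adjusted p up to 0.107 and 0.113. Leaving out either primed TD day 4 array left 3 of the 7 calls. Kif11, the motor that separates spindle poles, had a log2 difference of 0.11.

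Promoters of the risen genes were searched for motifs of factors known to drive cell cycle genes. Both strands of the 250 bases before the start site were searched. For E2F the motifs were TTCCCGC, besides this TTGGCGC, and also the variant TTCGCGC. The complex at the cell cycle homology region (CHR) was represented by TTTGAA and the factor NF-Y by the letters CCAAT. Matches on the other strand stand as their reverse complement. The sequences are from RefSeq, build GRCm38.p6. An E2F match on the other strand can overlap a CCAAT. The promoters of 4 strongly risen genes are shown with every match in capitals, picked after their motifs had been seen. They are Cdk1 (chr10:69352913-69353162, minus strand), Cks1b (chr3:89418292-89418541, minus strand), Hmgb2 (chr8:57511593-57511842, plus strand) and Rrm1 (chr7:102441445-102441694, plus strand).
Cdk1: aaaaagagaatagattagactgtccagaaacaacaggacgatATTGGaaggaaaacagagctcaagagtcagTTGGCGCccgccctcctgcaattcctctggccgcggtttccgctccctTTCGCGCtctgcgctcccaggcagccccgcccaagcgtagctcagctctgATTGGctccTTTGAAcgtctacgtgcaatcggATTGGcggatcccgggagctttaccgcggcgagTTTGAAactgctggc
Cks1b: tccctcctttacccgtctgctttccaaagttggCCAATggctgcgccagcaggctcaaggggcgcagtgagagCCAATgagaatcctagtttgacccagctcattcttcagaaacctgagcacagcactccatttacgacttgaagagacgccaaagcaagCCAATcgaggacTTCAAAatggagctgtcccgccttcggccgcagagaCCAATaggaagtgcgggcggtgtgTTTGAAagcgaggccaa
Hmgb2: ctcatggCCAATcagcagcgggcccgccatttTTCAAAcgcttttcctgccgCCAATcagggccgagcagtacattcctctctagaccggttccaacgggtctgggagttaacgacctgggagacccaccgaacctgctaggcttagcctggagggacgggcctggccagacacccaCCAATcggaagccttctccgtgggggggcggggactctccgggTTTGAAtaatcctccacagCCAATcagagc
Rrm1: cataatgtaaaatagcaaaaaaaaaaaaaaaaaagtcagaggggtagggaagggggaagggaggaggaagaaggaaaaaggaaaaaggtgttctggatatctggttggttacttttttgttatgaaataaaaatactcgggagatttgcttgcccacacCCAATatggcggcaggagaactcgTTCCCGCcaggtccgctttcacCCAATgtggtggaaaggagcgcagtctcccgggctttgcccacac

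Cdk1 holds 2 E2F, 2 CHR and 3 CCAAT matches. Cks1b and Hmgb2 each hold 2 CHR and 4 CCAAT matches and no E2F match, and Rrm1 holds 1 E2F and 2 CCAAT matches. RefSeq promoters were found for 285 of the 331 genes called higher, 342 promoters in all. Of these, 47.7% held CCAAT, against 34.9% of the 5614 promoters of tested genes, 34.2% of the 237 promoters of genes called lower and 33.8% of all 32851 promoters. E2F motifs stood in 21.6% of the higher, 10.1% of the lower and 11.8% of the tested genes' promoters (6.69% of all), and the CHR motif in 14.6%, 6.33% and 10.9%. Unlike for CCAAT and E2F, the CHR share over all promoters lay above that of the genes called higher. Among 34 promoters of called genes in the lists of replication and mitosis, 76.5% held CCAAT, 26.5% CHR and 23.5% E2F. These shares are descriptions of letters in the window, with no test, and no match says nothing of the factor.

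The switches of G1 moved less evenly than the genes of S phase and mitosis. Of 18 tested cyclins, kinases and inhibitors of G1, 2 were called higher and 2 lower (median 0.32). Over all genes these shares were 5.34% and 3.7%. Tfdp1, the partner of the E2F factors, read 59 and 83 against 541 and 553, at least 6.67-fold (adjusted p = 0.0012), and its second probe set, which represents it in the list, rose 6.93-fold (adjusted p = 0.00597, up to 0.057 without 1 array). Ccnd3, the cyclin D3 gene, rose from 137 and 104 to 435 and 724, 4.70-fold (adjusted p = 0.0167, up to 0.0939). Cdkn1b, the inhibitor p27, read 148 and 197 against 12 and 39, at least 2.11-fold lower (adjusted p = 0.0185, up to 0.0999). Btg1, an antiproliferative gene of quiescent lymphocytes, fell from 4639 and 4104 to 1684 and 1966, 2.40-fold (adjusted p = 0.0199, up to 0.119). Ccne1 (0.85), E2f1 (0.72) and Cdk4 (0.74) were not called. Without primed TD day 4 array 1 the list had 0 calls, without array 2 it had 1 higher and 0 lower, and without resting array 1 it had 1 higher and 1 lower.

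Chromatin regulators gave 13 higher and 0 lower calls of 25 tested genes (median 1.11), beside 5.34% called higher over all genes. Besides Hmgb2, Uhrf1, which guides maintenance DNA methylation, rose from 116 and 122 to 946 and 773, 7.19-fold (SE 0.20 on the log2 scale, adjusted p = 0.00129). Dnmt1, the methyltransferase that Uhrf1 recruits, read -377 and -175 against 461 and 323 (log2 difference 2.25, adjusted p = 0.00282). Ezh2, the enzyme that writes the repressive mark on histone H3 lysine 27, read 48 and 71 against 387 and 309, at least 4.27-fold (adjusted p = 0.00252). Of its complex partners, Rbbp7 rose from 635 and 676 to 1968 and 1973, 3.01-fold, Eed was called at 1.22 (adjusted p up to 0.128 without 1 array), and Suz12 at 1.11 was not. The histone variant H2az1 rose from 1125 and 1411 to 5293 and 4782, 3.99-fold (adjusted p = 0.00238). Nap1l1, a histone chaperone, rose by 2.31. Crebbp, a histone acetyltransferase, had -1.03 and was not called. With either primed TD day 4 array left out, 7 of the 13 calls were left.

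Germinal centre identity genes changed at few members. Of 19 tested, 4 were called higher (Bcl6, Ezh2, Gcsam and Pou2af1) and 0 lower, with a median of 0.37. The share called higher over all genes was 5.34%. Gcsam, a regulator of motility and receptor signalling in germinal centre B cells, rose from 154 and 101 to 753 and 661, 5.66-fold (SE 0.30, adjusted p = 0.00607). Pou2af1, the coactivator OCA-B, rose from 2256 and 2220 to 4533 and 3639 (log2 difference 0.86, adjusted p = 0.0413). The calls of Gcsam and Pou2af1 were lost without primed TD day 4 array 1 (adjusted p = 0.06 and 0.181), which left 2 of the 4. The ephrin Efnb1 read 134 and -58 against 224 and 188 (adjusted p = 0.0772). The receptors S1pr2 (0.49) and Cxcr4 (0.24) and the factors Mef2b (0.55) and Lmo2 (-0.40) were not called.

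Of the plasma cell programme, Jchain and Ell2 rose. They were 2 of 16 tested genes, beside 5.34% called higher over all genes, with 0 lower and a median of 0.29. Jchain, the chain that joins secreted IgM and IgA, rose from 803 and 764 to 2266 and 2770, 3.20-fold (SE 0.20, adjusted p = 0.00598). Ell2, an elongation factor that favours the secreted heavy chain transcript, rose from 138 and 129 to 383 and 535, 3.39-fold (adjusted p = 0.00766). Xbp1 (0.29) and the chaperones Hspa5 (0.06) and Hsp90b1 (-0.34) were not called. Irf4, needed for plasma cell fate, read 292 and 511 against 59 and 263 (adjusted p = 0.41). Among 8 tested immunoglobulin constant and joining genes, each read by its brightest probe set, Jchain was called. Some dimmer probe sets of Ighg3, the IgG3 constant region, were called too. They read 188 and 128 against 470 and 422 (adjusted p = 0.0273), and 167 and 125 against 362 and 308 (adjusted p = 0.0208). Its other dimmer probe sets were not called, with adjusted p between 0.249 and 0.305. Igha read 854 and 926 against 37 and 655 (adjusted p = 0.278).

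DNA repair and immunoglobulin diversification had 2 calls of 17 tested genes, both higher (median 0.20), beside 5.34% called higher over all genes. H2ax, the histone variant phosphorylated at double-strand breaks, rose from 1041 and 970 to 3813 and 2987, 3.36-fold (adjusted p = 0.00766). Xrcc1, a scaffold of single-strand break repair, rose from 205 and 176 to 345 and 346, 1.82-fold (adjusted p = 0.0223). Neither call held without primed TD day 4 array 1 (adjusted p = 0.0616 and 0.105), and the list then had 0 calls, against 1 without array 2. Ung, which removes uracil from DNA, had 0.24. Chek1 read 174 and 155 against 242 and 264 and was not called (adjusted p = 0.114).

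The B lineage transcription factors gave 0 calls in limma among 18 tested genes when each was read by its brightest probe set (median -0.29). Over all 7253 tested probe sets, 1615 had an unadjusted p under 0.05. Over all genes 5.34% were called higher and 3.7% lower, so a list of this size would hold few calls. Spib, at 2730 and 3441 against 1879 and 1822, had an adjusted p of 0.0677. Foxp1 read 384 and 504 against 188 and 259 (adjusted p = 0.108), and its second probe set was called lower, at 203 and 335 against 112 and 117 (log2 difference -1.19, adjusted p = 0.0385). Pax5 and Ebf1 had log2 differences of -0.27 and -1.09. B cell receptor signalling, at 0 of 19 (median -0.06), and immediate early genes, at 0 of 20 (median -0.20), also had no call. In the first, Blk read 2304 and 3306 against 1476 and 1492 (adjusted p = 0.064). Fos read 101 and 195 against 250 and 1036, so its primed TD day 4 arrays lay far apart (adjusted p = 0.16). Leaving out 1 array gave up to 2 calls in these lists, with 2 higher immediate early genes without primed TD day 4 array 1 and 2 lower without resting array 2.

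Survival genes changed at Bid and Cycs, 2 of 20 tested, with 0 lower and a median of -0.01. Over all genes 5.34% were called higher and 3.7% lower. Bid, a death-promoting member of the Bcl2 family, read 12 and 64 against 279 and 265, at least 3.36-fold (adjusted p = 0.00609, up to 0.057 without 1 array). Cycs, cytochrome c, read 53 and 88 against 243 and 200, at least 2.61-fold (adjusted p = 0.0163, up to 0.102). Bcl2, the survival gene, read 420 and 279 against 170 and 196 (adjusted p = 0.0808), and Mcl1 1636 and 2272 against 1236 and 941 (adjusted p = 0.0987). Bcl2 and Mcl1 were lower on both primed TD day 4 arrays, yet short of the threshold. Without primed TD day 4 array 1 the list had 0 calls, and without each of the other 3 arrays 1 higher call was left. Without resting array 2, Bcl2 was called lower (adjusted p = 0.0466).

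The largest falls were globin transcripts. Hbb-b2, a beta globin, read 8744 and 7985 units in resting and 65 and 142 in primed TD day 4, at least 77.9-fold lower (log2 difference -6.28, SE 0.43, adjusted p = 0.00122). Hba-a1, an alpha globin, fell from 15550 and 13751 to 285 and 477, 39.7-fold (adjusted p = 0.000929). Globin copies are near identical, so their probe sets may read several of them. S100a8 and S100a9, the calprotectin chains of neutrophils, read 2833 and 3279 against 169 and 326, and 823 and 1185 against 60 and 23 (adjusted p = 0.00822 and 0.0287, up to 0.0627 and 0.148 without 1 array). C1qa, a complement chain of macrophages, read 708 and 597 against -140 and -18, at least 8.03-fold lower (adjusted p = 0.0021). Vcam1, an adhesion molecule of splenic macrophages, and Car2, of red cells, were called too (adjusted p up to 0.134 and 0.0627 without 1 array). Apoe, another macrophage transcript, read 434 and 775 against 1305 and 1140 (adjusted p = 0.232). In all, 3 of 8 tested red cell, 2 of 12 neutrophil and 3 of 11 macrophage genes were called lower. Over all genes the share was 3.7%. Without primed TD day 4 array 1 these lists had 2, 0 and 1 lower calls, and the neutrophil list had 1 without array 2, 1 without resting array 1 and 0 without resting array 2. How far other cells in the resting sorts account for these falls was not tested.

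Other large falls lay in genes with no such origin on the lists. Esyt1, which tethers the endoplasmic reticulum to the plasma membrane, read 1052 and 1064 against -73 and -100, at least 13.1-fold lower (SE 0.14, adjusted p = 0.000194). Cnn3, an actin-binding calponin, read 1130 and 1426 against 34 and 120, at least 12.9-fold lower (adjusted p = 0.00122). Abcg1, which exports cholesterol, read 689 and 820 against -67 and 44, at least 9.28-fold lower (adjusted p = 0.00209). These 3 genes thus fell from clear signals to background. Cd302, a C-type lectin receptor, read 850 and 608 against 63 and 44, at least 8.88-fold lower (adjusted p = 0.00106). B4galnt1, a ganglioside synthase, read 587 and 789 against 46 and 92, at least 7.88-fold lower (adjusted p = 0.00317). Tyrobp, a signalling adaptor of myeloid and natural killer cells, read 600 and 573 against 35 and 108, and Cfp (properdin), a complement factor, 668 and 532 against 71 and 113. Their folds were at least 6.27 and at least 6.23 (adjusted p = 0.0033 and 0.00252). Sdc4, a heparan sulphate proteoglycan, read 827 and 405 against -362 and -233 (adjusted p = 0.00535, up to 0.0535 without 1 array). The neutrophil and macrophage marker sums fell beside these genes, and their part in the falls was not tested.

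One immunoglobulin variable gene was among the falls. Ighv14-2 read 2574 and 1940 against 136 and 351, 10.2-fold lower (log2 difference -3.35, SE 0.51, adjusted p = 0.0135, up to 0.073 without 1 array). Its 2 other probe sets were called lower as well, at -3.02 and -3.20. Probe sets of related variable genes may read the same transcripts, so which genes of the family fell was not settled by these probe sets.

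Of 18 tested genes of recirculation 8 were called lower and 0 higher (median -0.69), beside 3.7% called lower over all genes. S1pr1, the receptor that lets lymphocytes leave lymphoid tissue, fell from 765 and 937 to 98 and 135, 7.36-fold (log2 difference -2.88, SE 0.22, adjusted p = 0.00165). Ccr7, the chemokine receptor for T cell zones, read 561 and 518 against 35 and 98, at least 6.05-fold lower (adjusted p = 0.00106). Klf3, a transcription factor of the family that governs such genes, fell from 840 and 847 to 150 and 219, 4.65-fold (adjusted p = 0.00342). A second Klf3 probe set read 277 and 317 against 18 and 173 and was not called (adjusted p = 0.0959). S1pr4 (at least 4.44-fold), Cd47 (log2 difference -2.03), Itgb7 (1.98-fold) and Cxcr5, the receptor for follicles, at 959 and 861 against 536 and 346 (2.11-fold), were called lower too. These 4 calls were lost without 1 array, with adjusted p up to 0.156. Leaving out either primed TD day 4 array left 3 of the 8 calls and leaving out resting array 2 left 4. The integrins Itgb1 (0.60), Itga4 (-0.04) and Itgb2 (-0.13) were not called.

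Marginal zone, B1 and Notch genes were called lower at 5 of 11 tested members, beside 3.7% over all genes. All 11 differences were negative (median -0.86). Notch2, the receptor that marginal zone B cells need, read 930 and 643 against 11 and 146, at least 7.11-fold lower (SE 0.34, adjusted p = 0.00637). Cd1d1, which presents lipids and is high on marginal zone cells, read 255 and 342 against 18 and 52, at least 3.65-fold lower (adjusted p = 0.0033). Plac8, a small cysteine-rich protein, fell from 6166 and 4444 to 696 and 1331, 5.44-fold (adjusted p = 0.0114). Dtx1, a Notch target, fell from 1711 and 1999 to 449 and 797 (adjusted p = 0.0328), and Rbpj, the factor Notch acts through, from 214 and 181 to 88 and 109 (adjusted p = 0.0243). Plac8, Dtx1 and Rbpj lost their calls without 1 array (adjusted p up to 0.0573, 0.131 and 0.124). Cr2, the complement receptor CD21, read 491 and 528 against 235 and 336 (adjusted p = 0.0949). The list had 2 calls without primed TD day 4 array 1 and 3 without resting array 1. A second Notch2 probe set overlapped between the groups (adjusted p = 1.0).

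Cytokine receptors and STATs had 5 lower and 0 higher calls of 23 (median -0.33), beside 3.7% called lower over all genes. Stat6, which carries the IL-4 signal, read 352 and 526 against 47 and 67, at least 5.31-fold lower (SE 0.21, adjusted p = 0.00259). Fcer2a (CD23), the low-affinity IgE receptor that IL-4 induces, fell from 2201 and 2703 to 614 and 861 (log2 difference -1.75, adjusted p = 0.00743). Il4ra, the IL-4 receptor chain, fell from 700 and 975 to 245 and 298, 3.06-fold (adjusted p = 0.0481). The second Il4ra probe set read 141 and 103 against 116 and 123 and was not called (adjusted p = 1.0). Ifnar2, of the interferon receptor, and Il10rb were called lower too, with log2 differences of -1.78 and -1.40. The calls of Il4ra, Ifnar2 and Il10rb were lost without 1 array (adjusted p up to 0.225, 0.0926 and 0.145). Leaving out primed TD day 4 array 1, array 2 or resting array 2 left 2 calls each, and without resting array 1 there were 3 lower and 1 higher. Jak1 (-0.49) and Stat3 (-0.03) were not called.

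In the type I interferon response 5 of 14 tested genes were called lower, beside 3.7% over all genes, and 0 higher. All 14 differences were negative (median -0.62). Irf9, the DNA-binding part of the interferon-induced complex, read 636 and 488 against 10 and 106, at least 6.01-fold lower (adjusted p = 0.0033). Rsad2 (viperin), an antiviral enzyme, read 180 and 194 against 41 and 70, at least 2.31-fold lower (adjusted p = 0.00597). Isg20, Irf1 and Trim25 fell 2.36-fold, 1.77-fold and 1.72-fold, with calls lost without 1 array (adjusted p up to 0.118, 0.151 and 0.196). The list kept 2 calls without primed TD day 4 array 1, array 2 or resting array 2, and 3 without resting array 1. Mx1, an antiviral GTPase, had -1.04 and was not called.

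The CD40 and NF-kB list had 3 lower and 0 higher calls of 16 (median -0.48), beside 3.7% called lower over all genes. Nfkb2, the precursor of the alternative NF-kB pathway, fell from 613 and 611 to 198 and 134, 3.76-fold (SE 0.22, adjusted p = 0.00539). Ltb, lymphotoxin beta, which shapes follicles, fell from 10228 and 10760 to 4587 and 5040, 2.18-fold (adjusted p = 0.00865, up to 0.0634 without 1 array). Nfkbie, an inhibitor of NF-kB, read 189 and 186 against 57 and 55 (log2 difference -1.21, adjusted p = 0.0122, up to 0.0775). Cd40 itself had -0.46 and was not called. The list had 1 lower call without primed TD day 4 array 1.

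Few genes of antigen presentation and of the B cell receptor were called. Of 18 tested genes of MHC class II presentation 2 were called lower, 0 higher, and the median was -0.48. Over all genes 3.7% were called lower. Ctss, the protease that trims the invariant chain, fell from 3662 and 4191 to 1577 and 1787, 2.33-fold (adjusted p = 0.00958), and H2-Oa, which restrains peptide loading in B cells, from 1995 and 1899 to 653 and 928, 2.50-fold (adjusted p = 0.0159). H2-Aa, a class II chain, read 15575 and 14325 against 9899 and 9986 (adjusted p = 0.0585). Both calls were lost without primed TD day 4 array 1 (adjusted p = 0.0703 and 0.075), and 1 was left without resting array 1. Of 13 receptor and coreceptor genes, Cd79b, a signalling chain of the B cell receptor, fell from 10557 and 9614 to 5995 and 5837, 1.70-fold, Cd37, a tetraspanin, 2.02-fold, and Ptpn6 (SHP-1), an inhibitory phosphatase, 1.99-fold. Cd24a, a mucin-like surface protein, rose from 4684 and 3988 to 7257 and 6864, 1.63-fold (adjusted p = 0.0436). The list's 1 higher and 3 lower calls fell to 0 without either primed TD day 4 array, and without resting array 2 it had 0 higher and 3 lower. Ms4a1 (CD20, 0.27) and Cd79a (-0.69) were not called.

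Of 29 tested splicing and RNA-binding genes 14 were called higher, beside 5.34% over all genes, and 0 lower. All 29 differences were positive (median 0.80). Hnrnpm, which regulates splice site choice, rose from 86 and 141 to 685 and 654, 6.08-fold (SE 0.27, adjusted p = 0.00393). Srsf1, a serine-arginine splicing factor, read 106 and 20 against 387 and 420, at least 4.35-fold (adjusted p = 0.00504), although its 3 other tested probe sets, with differences of -0.39, 0.32 and 0.74, gave 1 call. Tra2b, U2af1 and Srsf2 rose 3.41-fold, 2.76-fold and 2.38-fold, with calls lost without 1 array (adjusted p up to 0.0626, 0.0627 and 0.0777). The list had 2 and 3 calls without primed TD day 4 array 1 or 2.

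Enzymes of glycolysis had 6 higher and 0 lower calls of 14 (median 0.35), beside 5.34% called higher over all genes. The calls lay between 1.66-fold and 2.30-fold. Pgk1, phosphoglycerate kinase, rose from 599 and 553 to 1277 and 1122, 2.08-fold (adjusted p = 0.0117), and Ldha, lactate dehydrogenase A, from 1309 and 1328 to 2617 and 2158 (log2 difference 0.85, adjusted p = 0.0279). Pgam1, Pfkp, Tpi1 and Pkm completed the calls. The transporter Slc2a3 (-0.97) and the kinase Pfkm (-1.37) were not called. Each of the 6 calls was lost without at least 1 array, with adjusted p up to 0.196. The list kept 1 call without either primed TD day 4 array, 3 without resting array 1 and 2 without resting array 2.

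Of 25 tested mitochondrial genes of the tricarboxylic acid cycle and carriers, 4 were called higher (median 0.39). Oxidative phosphorylation had 7 higher calls of 37 (median 0.30). Neither list had a lower call, and 5.34% of all genes were called higher. Slc25a4 and Slc25a5, the carriers that exchange ADP for ATP, rose from 339 and 407 to 814 and 791, 2.16-fold, and from 1292 and 963 to 2384 and 2283, 2.09-fold (adjusted p = 0.0115 and 0.0209). Ndufs1, of complex I, rose from 170 and 182 to 409 and 476, 2.51-fold (adjusted p = 0.0102). Cox7a2, of complex IV, rose from 637 and 665 to 1449 and 1323, 2.13-fold (adjusted p = 0.0118). None of the 11 calls held without every array in turn, with adjusted p up to 0.193. Without primed TD day 4 array 1 the lists had 0 higher and 1 lower call between them, and without array 2 they had 0. Without resting array 1 the first had 2 calls.

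Myc targets and genes of ribosome production had 5 higher and 0 lower calls of 26 (median 0.11), beside 5.34% called higher over all genes. Npm1, a nucleolar chaperone, rose from 619 and 511 to 1550 and 2423, 3.45-fold (SE 0.25, adjusted p = 0.0102). Ncl, nucleolin, rose from 300 and 467 to 1333 and 1659, 3.97-fold, and Ran, the GTPase of nuclear transport, from 3480 and 3617 to 8264 and 7135, 2.16-fold (adjusted p = 0.0185 and 0.0135, up to 0.116 and 0.0831 without 1 array). Odc1 and Ranbp1 were called at 2.01-fold and 1.86-fold (adjusted p up to 0.0814 and 0.102 without 1 array). Myc itself had -0.49, and Nop2 and Pes1 had -0.97 and -0.92, all without a call. Leaving out either primed TD day 4 array left 1 higher call, and 1 lower call appeared without array 1.

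The proteasome gave 4 higher and 0 lower calls of 31 (median 0.53), and 24 of the 31 differences were positive. Psmd14, which removes ubiquitin from substrates, rose from 333 and 249 to 776 and 698, 2.56-fold (adjusted p = 0.012), and Psmc2, Psmc6 and Psma2 rose 2.01-fold, 2.77-fold and 1.78-fold. All 4 calls were lost without either primed TD day 4 array, with adjusted p up to 0.197, and 2 were left without resting array 2. Of 24 cytosolic chaperones, each read by its brightest probe set, Tcp1, of the chaperonin ring, was called higher (-44 and 35 against 167 and 205, at least 2.28-fold, adjusted p = 0.00984) and Hsph1 lower (2.02-fold, adjusted p = 0.0399). With 5.34% of all genes called higher and 3.7% lower, 1 call each way is near the overall shares. The calls of Tcp1 and Hsph1 were lost without 1 array (adjusted p up to 0.0551 and 0.19), and without primed TD day 4 array 2 the list had 0 calls. Of the dimmer probe sets of Hspa4, a heat shock protein, 2 were called higher, at -56 and 26 against 235 and 244 (adjusted p = 0.00724) and at 181 and 148 against 383 and 362 (adjusted p = 0.0114). Hspa1a, the inducible heat shock protein, read 45 and 101 against 170 and 912 and was not called (adjusted p = 0.161).

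Lipid genes moved in both directions. Of 18 tested, 4 were called higher and 3 lower (median -0.06), beside 5.34% and 3.7% over all genes. Hmgcs1 and Fdps, early enzymes of sterol synthesis, read 61 and 100 against 340 and 319 (at least 3.66-fold, adjusted p = 0.00495) and 241 and 170 against 629 and 738 (3.37-fold, adjusted p = 0.00721, up to 0.0559 without 1 array). Scd1, which desaturates fatty acids, fell from 4837 and 5333 to 2138 and 2697, 2.12-fold (adjusted p = 0.0195, up to 0.102). Abcg1, the cholesterol exporter, was the largest fall of the list. Fasn (0.47) and Srebf1 (-0.64) were not called. The list had 3 higher and 1 lower without primed TD day 4 array 1, without array 2 it had 2 and 1, and without resting array 2 it had 4 and 2.

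Of 21 tested redox genes 1 was called higher (Txn1) and 1 lower, with a median of -0.05. Over all genes 5.34% were called higher and 3.7% lower, so these counts are near the overall shares. Sesn1, a stress-induced inhibitor of growth signalling, fell from 514 and 558 to 154 and 164, 3.37-fold (adjusted p = 0.016, up to 0.102 without 1 array). Txnip, the inhibitor of thioredoxin, read 1173 and 1492 against 400 and 744 (adjusted p = 0.0702). Its second probe set, at 800 and 286 against 449 and 580, overlapped between the groups (adjusted p = 0.969). Whichever of the 4 arrays was left out, the list had 0 lower calls, and without resting array 2 it had 2 higher. Among 37 cytoskeletal genes 4 were called higher (Anxa2, Tuba1a, Tuba1c and Tubb5) and 5 lower (Cnn3, S100a10, Capg, Marcks and Anxa6), with a median of -0.07. Capg, which caps actin filaments, fell from 1465 and 1531 to 423 and 567, 3.06-fold (SE 0.20, adjusted p = 0.00721). Tuba1c, an alpha tubulin, rose from 2526 and 2393 to 6001 and 4821, 2.19-fold (adjusted p = 0.0141, up to 0.0781 without 1 array). Anxa6 fell 2.06-fold (up to 0.0765 without 1 array). The 2 Tubb5 probe sets rose 7.21-fold and by 0.91 on the log2 scale, the second without a call when 1 array was left out (adjusted p up to 0.127). The cytoskeletal list had 1 higher and 2 lower calls without primed TD day 4 array 1 and 2 higher and 4 lower without resting array 2. The plot of the lists orders them by their median.

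**Figure D4:**
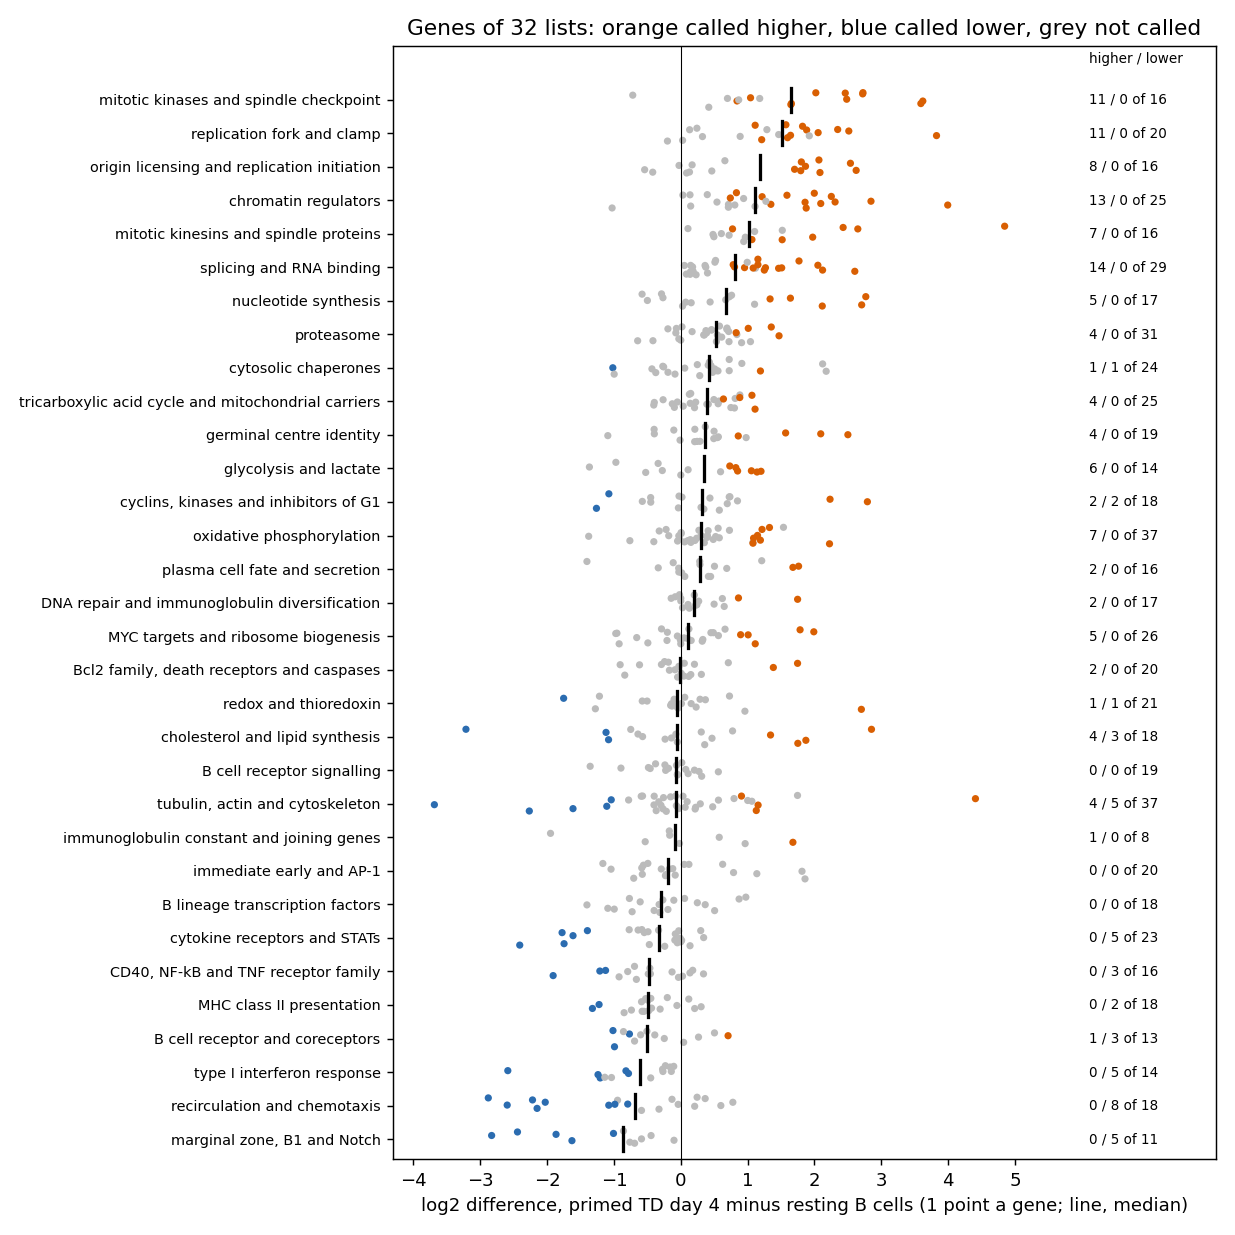
Log2 difference of primed TD day 4 minus resting B cells for the tested genes of 32 lists, 1 point a gene, with a black line at each list's median and the counts called higher and lower at the right. Orange genes were called higher, blue lower and grey not called. Mitotic kinases and spindle checkpoint lie highest, with a median of 1.65, and marginal zone, B1 and Notch genes lowest, at -0.86.

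The deposited array reads many genes with several probe sets, which gives a check within each gene. Of 835 genes with 2 or more tested probe sets, 137 had at least 1 call. In 27 of them all probe sets were called in 1 direction, and in 0 were 2 called in opposite directions. In 32 another probe set had the opposite sign. Slpi, a protease inhibitor, shows such a split, since 1 probe set rose from 213 and 163 to 761 and 912 (4.47-fold, adjusted p = 0.00992, up to 0.0696 without 1 array) and the others read 1473 and 1183 against 1468 and 1484, and 1230 and 994 against 600 and 940, without a call. Mcm3 and Fdps, in contrast, rose in both of their probe sets.

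No probe set was called between the T-dependent groups. Unprimed TD day 10 against primed TD day 4 gave 0 of 7253 calls in limma (0.0%), with 373 probe sets at an unadjusted p under 0.05. There were 14 calls when dim probe sets were kept, and 1 without primed TD day 4 array 2. Basp1 read 4375 and 4794 in unprimed TD day 10, Stmn1 2387 and 2207, Bcl6 1475 and 1407, and S1pr1 77 and 97, next to primed TD day 4 values of 5311 and 3677, 2608 and 2079, 1409 and 1236, and 98 and 135. The primed TD day 4 arrays enter both comparisons, and missing a threshold does not show that the groups are alike.

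TI day 4 differed from primed TD day 4 at 105 probe sets (1.45%), 53 higher (0.731%) and 52 lower (0.717%) in TI day 4. Basp1 stood lower in TI day 4, at 584 and 495 against 5311 and 3677, 8.22-fold (log2 difference -3.04, SE 0.22, adjusted p = 0.0067). Its second probe set read 2309 and 2909 against 4183 and 3961 and was not called (log2 difference -0.65, adjusted p = 0.241). Gcsam, at 156 and 131 against 753 and 661, lay near its resting level (adjusted p = 0.0281). Slpi read 130 and 87 against 761 and 912 (adjusted p = 0.0139), and Lypla1, a thioesterase, 82 and 50 against 257 and 233 (adjusted p = 0.0123). The other tested probe sets of both genes were not called, with log2 differences of -0.36 and -0.20 for Slpi and of 0.13, -0.26 and -0.45 for Lypla1. Srsf1 read 118 and 75 against 387 and 420 (adjusted p = 0.0221). Its other tested probe sets were not called, with log2 differences of -0.04, -0.74 and -0.32. Higher in TI day 4 were Jchain, at 7347 and 9356 against 2266 and 2770 (log2 difference 1.73, adjusted p = 0.0208), Isg20, at 486 and 675 against 119 and 139 (adjusted p = 0.0139), and Cd302, at 417 and 449 against 63 and 44 (adjusted p = 0.00989).

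Of the replication, nucleotide and mitosis lists, 0 genes were called in this difference, beside 1.45% of all tested probe sets. At that share, lists of this size would hold few calls, so the 0 does not show that these genes are alike. Stmn1, at 2585 and 2811 in TI day 4, had a difference of 0.21 (adjusted p = 0.699), and Bcl6, at 846 and 1034, of -0.50 (adjusted p = 0.264). The fall of S1pr1 was shared in value, at 93 and 97, as was that of Ccr7, at 40 and 48. The number of calls between TI day 4 and primed TD day 4 rests on single arrays. Without primed TD day 4 array 1 or 2 it was 1 and 7, without either unprimed TD day 10 array 22, without TI day 4 array 1 or 2 it was 28 and 0, and on the 4 arrays alone 0. The plot of single genes shows all 4 groups.

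**Figure D5:**
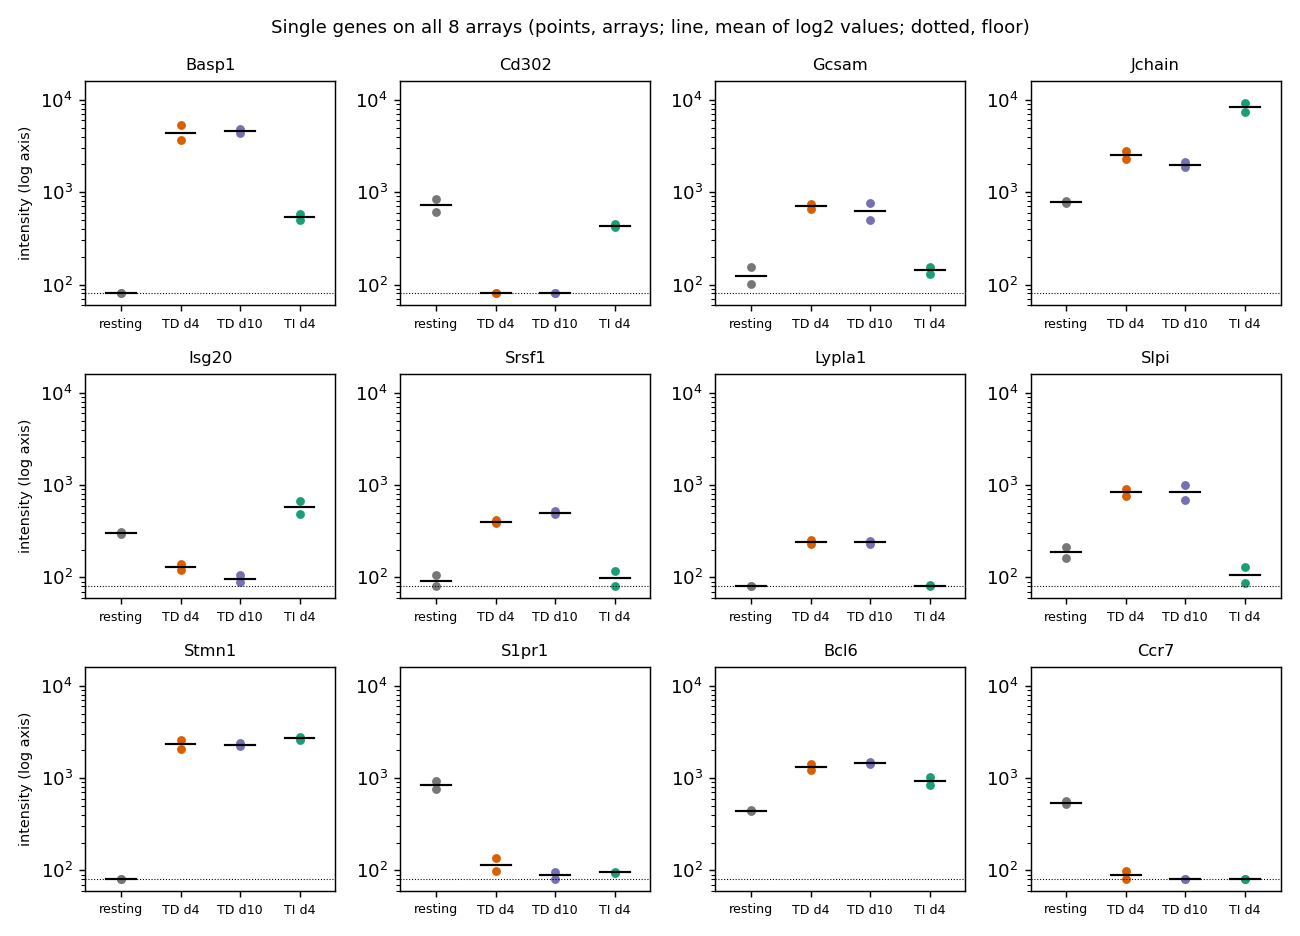
Intensity on each of the 8 arrays (log axis) of 12 genes, with a line at the mean of each group's log2 values and the floor of 81 dotted, for resting B cells, primed TD day 4 (TD d4), unprimed TD day 10 (TD d10) and TI day 4 (TI d4). In primed TD day 4 Basp1 read 5311 and 3677 and in TI day 4 584 and 495. Stmn1 lies at 2079 or above on all arrays of the 3 germinal centre groups.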

How the data were processed

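RNA of 8 sorted B cell samples, 2 pools of mice in each of 4 groups, was biotin-labelled and hybridised to Affymetrix arrays, per the labels' protocols, which call the 2 samples of a group biological replicates. The deposited values are linear intensities in whole numbers, with 30.11% at or below 0. They were read as scaled signals with background subtracted. The software that made them is not stated, and its scaling is not given in the sources used here. The 66 control probe sets were left out. Probe sets were named through the platform annotation, 10833 with 1 gene, 396 with several and 1193 with none, and symbols were updated by Entrez ID to RefSeq GRCm38.p6 (10817 matched).

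Values were set to a floor of 81, the 50th percentile, and log2 was taken. The 7253 probe sets above the floor on at least 2 arrays were fitted with limma 3.58.1 (R 4.3.3) as 4 group means over all 8 arrays, with 4 residual degrees of freedom, two-sided tests and Benjamini-Hochberg adjustment at 0.05. Each SE is limma's moderated standard error on the log2 scale. A gene of a list is represented by its brightest tested probe set. Tables were made in Python 3.11.15 with pandas 2.3.3. The alternatives were other scalings, floors, filters, priors, array weights, a replicate block, each array left out, the 4 arrays alone and the marker genes of other cells left out.

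The groups compared and the gene lists were chosen with earlier results of these data known. The text names the 20 largest rises and falls, from each list 5 members by smallest p, genes that check the sort, called markers of other cells, and called genes that also differed from another germinal centre group. Only part of these is named, and further list members were named after their values were seen. Tested on simulated data with 200 of 7253 probe sets changed between primed TD day 4 and resting, over 20 draws, the fit found 23% of 2-fold and 65.6% of 4-fold changes, with 3.75 false calls among 92.4.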

Additional observations from a re-analysis of the deposited data

Results flagged for a closer look

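For 11 of the genes named by the rule the change from resting cells differed between TI day 4 and primed TD day 4, tested as the direct difference of the groups in limma. Over all tested probe sets 105 were called in this difference. All values are log2 differences of TI day 4 minus primed TD day 4 with their adjusted p. The primed TD day 4 arrays enter all of them. Most of these calls rest on single arrays, since the whole comparison has 1 call without primed TD day 4 array 1 and 0 without TI day 4 array 2.

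Genes lower in TI day 4 included the membrane protein Basp1 (-3.04, adjusted p = 0.0067), the protease inhibitor Slpi (-2.97, adjusted p = 0.0139) and the germinal centre gene Gcsam (-2.30, adjusted p = 0.0281). The splicing factor Srsf1 (-2.04, adjusted p = 0.0221), the thioesterase Lypla1 (-1.59, adjusted p = 0.0123) and the chaperonin subunit Tcp1 (-1.19, adjusted p = 0.0318) were lower too. Other tested probe sets of Basp1 (-0.65, adjusted p = 0.241), Slpi, Lypla1 and Srsf1 were not called. Tcp1 read 59 and 23 in TI day 4, under the floor, against 167 and 205.

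Genes of secretion stood among those higher in TI day 4. Edem1, a factor in the disposal of misfolded glycoproteins, read 639 and 803 against 128 and 133 (2.46, adjusted p = 0.0067). Prdx4, a peroxiredoxin of the endoplasmic reticulum, read 634 and 758 against 194 and 210 (1.78, adjusted p = 0.0351). Between primed TD day 4 and resting cells Edem1 and Prdx4 were not called in limma (adjusted p = 0.0571 and 0.0779). The lectin receptor Cd302 (2.42, adjusted p = 0.00989), the interferon-induced exonuclease Isg20 (2.15, adjusted p = 0.0139) and Jchain (1.73, adjusted p = 0.0208) were higher as well.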

How the results depend on the processing

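Against resting cells 683 probe sets were called, and 118 with only the arrays compared. Leaving out 1 array gave 192 to 621 calls, the lowest without a primed TD day 4 array. The other scalings, floors, filters, priors and weights gave 478 (no filter) to 730 (floor at the 60th percentile). With a common median 381 of 659 calls were higher. Between unprimed TD day 10 and primed TD day 4 the 0 calls became 14 with no filter, and 0 to 1 with 1 array left out. Between TI day 4 and primed TD day 4 the 105 calls became 42 with no filter, 261 with array weights and 0 with only the arrays compared, and 0 to 125 with 1 array left out. Of 148 called probe sets named by the rule, 31 were called under every alternative and 0 reversed; 108 lost the call with only the arrays compared, 79 and 63 without primed TD day 4 array 1 or 2, 31 with no filter. The cause was not tested, beyond the fewer arrays of some fits.

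The labels do not say whether equal array numbers pair samples of different groups. The correlation of deviations was 0.03 for resting and primed TD day 4. Among the pairs of groups it lay between -0.22 (resting and unprimed TD day 10) and 0.12 (unprimed TD day 10 and TI day 4). With so few arrays a group, these values cannot settle whether the samples were paired. A replicate block gave 489 calls against resting and 46 between TI day 4 and primed TD day 4. A crossed replicate block, added after seeing the data because that pair correlated at -0.11, gave 40 there and 0 for unprimed TD day 10. The median of the immunoglobulin list turned from -0.09 to 0.06 under quantile normalization, and that of the stromal list from 0.03 to -0.02 with a common median.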

Other observations

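Of the called probe sets, 90 name no gene or several, 65 higher and 25 lower in primed TD day 4. The largest fall, in a probe set that matches 4 genes, read 18459 and 16150 in resting and 207 and 464 in primed TD day 4, 55.7-fold lower (limma adjusted p = 0.00252). Another, which matches 2 genes, read 7286 and 7490 against 266 and 403 (adjusted p = 0.000629).

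The strongest rise among them, in a probe set with no gene in the annotation, read 25 and 35 in resting and 1986 and 1244 in primed TD day 4, at least 19.4-fold higher (adjusted p = 0.000802). It read 3567 and 3923 in unprimed TD day 10 and 78 and 57 in TI day 4, so only the T-dependent groups lay above the floor. Its difference between TI day 4 and primed TD day 4 was -4.28 on the log2 scale (adjusted p = 0.00521). A second unnamed probe set had the same order of groups, at -36 and -7 in resting, 676 and 400 in primed TD day 4, 708 and 781 in unprimed TD day 10 and 48 and -1 in TI day 4 (adjusted p = 0.0131 between TI day 4 and primed TD day 4).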
